A study of Mus musculus with 18 samples.

Results

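The insulin-like growth factor (IGF) axis and *H19* were followed as 10 genes, taken by their symbols from the 19153 genes with deposited values. They are the ligands *Igf1* and *Igf2*, the receptors *Igf1r* and *Igf2r*, the binding proteins *Igfbp2*, *Igfbp3*, *Igfbp4*, *Igfbp5* and *Igfbp6*, and the non-coding RNA *H19*. All 10 were among the 17672 genes that passed the filter on low values. RNA was sequenced from an immortalized mouse myoblast line in which p53 is knocked out, so every group lacks p53. LAP2α knockout (KO) cells had received Cas9 with an sgRNA against LAP2α, and wildtype (WT) control cells the same Cas9 plasmid without an sgRNA. Both were populations sorted in bulk for the plasmid, not clones. Cells of each genotype were proliferating in 20% serum (Prol), at confluence (D0), or kept for 48 h in 5% serum thereafter (D2), with 3 replicate libraries in each of these 6 groups. The labels do not say whether replicates were separate cultures, so the p-values measure the spread between these libraries.

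IGF1 and IGF2 are secreted growth factors that signal through IGF1R, a receptor tyrosine kinase, to the PI3K-AKT and RAS-MAP kinase pathways. IGF2R has no kinase and carries IGF2 to lysosomes, and the IGF binding proteins hold the ligands outside the cell and set how much of them reaches the receptor. *Igf2* and *H19* lie side by side in an imprinted region, where *Igf2* is read from the paternal and *H19* from the maternal chromosome under the control of shared enhancers, and in differentiating myoblasts IGF2 is known as an autocrine factor and *Igfbp5* as an induced binding protein.

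On the GRCm38 assembly with the GENCODE M21 annotation, *H19* (ENSMUSG00000000031, a lincRNA) is at chr7:142575529-142578143 and *Igf2* (ENSMUSG00000048583) at chr7:142650766-142666816, both on the minus strand and 72622 bases apart. *Igfbp2* (chr1:72824503-72852474, plus strand) and *Igfbp5* (chr1:72857932-72874884, minus strand) converge with 5457 bases between them. The others lie far from the rest of the 10 genes: *Igf1* at chr10:87858265-87937042, *Igf1r* at chr7:67952827-68233668, *Igf2r* at chr17:12682406-12769664, *Igfbp3* at chr11:7206086-7213923, *Igfbp4* at chr11:99041244-99054392 and *Igfbp6* at chr15:102144362-102149511. *H19* is the host transcript of miR-675, whose mature forms from RefSeq are shown because the host was the most abundant of the 10 transcripts per length in every group. Both lie on the minus strand inside *H19*, at chr7:142577112-142577133 (5p) and chr7:142577078-142577099 (3p), and the capitals mark the seed, bases 2 to 8. The libraries were made from polyadenylated RNA, and miR-675 itself was not measured.
mmu-miR-675-5p: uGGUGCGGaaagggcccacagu
mmu-miR-675-3p: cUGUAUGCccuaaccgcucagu

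The bases before the transcription start are shown for *Igfbp5* and *Igfbp4*, whose RNA rose most among the binding proteins at D2, and for *Igf1r*, whose RNA did not pass the test. They come from RefSeq windows on GRCm38.p6, cut where a GENCODE exon begins: chr1:72874885-72875115 (minus strand) for *Igfbp5*, chr11:99040994-99041243 (plus strand) for *Igfbp4* and chr7:67952007-67952256 (plus strand) for *Igf1r*. Capitals mark matches, on either strand, to the motifs searched in the 250 bases before the start.
Igfbp5: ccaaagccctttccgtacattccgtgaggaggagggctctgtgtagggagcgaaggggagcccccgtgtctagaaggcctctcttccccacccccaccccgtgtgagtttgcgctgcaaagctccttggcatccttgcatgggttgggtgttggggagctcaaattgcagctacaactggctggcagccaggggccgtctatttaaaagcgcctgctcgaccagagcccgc
Igfbp4: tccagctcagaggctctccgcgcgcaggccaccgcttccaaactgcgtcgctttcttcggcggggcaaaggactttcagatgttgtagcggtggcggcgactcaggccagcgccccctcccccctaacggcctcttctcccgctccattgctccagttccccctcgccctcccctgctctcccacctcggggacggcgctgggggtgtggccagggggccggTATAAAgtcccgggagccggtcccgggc
Igf1r: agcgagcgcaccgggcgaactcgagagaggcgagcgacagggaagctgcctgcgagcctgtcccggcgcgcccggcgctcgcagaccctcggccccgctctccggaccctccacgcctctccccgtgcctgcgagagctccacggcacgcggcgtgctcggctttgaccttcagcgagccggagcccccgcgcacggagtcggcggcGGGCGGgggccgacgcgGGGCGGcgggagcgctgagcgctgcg

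*Igfbp4* has a TATA box (TATAAA) 28 bases before the start, a motif found in 12.4% of all 32851 windows. The 250 bases of *Igf1r* hold GC boxes (GGGCGG) at 43 and 26 bases before the start, a motif present in 32.7% of windows. *Igfbp5* has no match to these, to the E boxes CAGCTG (13.0% of windows) or CAGGTG (17.2%), or to MEF2 sites (0.508%) or the serum response element (1.47%). Of the 13 windows of the 9 protein-coding genes, 1 held CAGCTG, 2 held CAGGTG and none held a MEF2 site.

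Library totals were 26437823 to 41619016 expected counts. Values are counts per 1000000 (CPM), scaled by the trimmed mean of M values (TMM). *Tmpo*, the gene that encodes LAP2α together with other LAP2 isoforms, was at 228 to 260 CPM in KO Prol and 275 to 315 CPM in WT Prol. It was at 191.0 to 259.1 CPM in KO D0 and 239.4 to 301.9 CPM in WT D0, and at 94.5 to 157.2 CPM in KO D2 and 106.05 to 157.4 CPM in WT D2. KO lay below WT without overlap in Prol, and the genotypes overlapped at D0 and at D2. The isoforms were counted together, so these values do not check the knockout. The 7 myoblast markers with values summed to 109 to 136 CPM in WT Prol, to 768 to 1372 CPM in WT D2 and to 586 to 712 CPM in KO D2. *Dag1* was the highest of them in WT Prol (mean 71.9 CPM). *Myf5* averaged 24.5 CPM in WT Prol and 17.6 CPM in WT D2, while *Myod1* and *Des* averaged 2.59 and 3.44 CPM in WT Prol. Every marker of these 7 but *Myf5* had a higher mean in WT D2 than in WT Prol. *Pax7* had no value among the genes analysed. The 10 markers of differentiating muscle summed to 8.09 to 23.6 CPM in WT Prol, to 3673 to 7513 CPM in WT D2 and to 2195 to 2883 CPM in KO D2. The 9 fibroblast markers with values summed to 37.5 to 93.2 CPM in the Prol libraries and to 258 to 466 CPM in the D2 libraries, with *Pdgfra* highest. Markers of macrophages (*Csf1r*, *Cd68*) summed to 3.62 to 8.004 CPM, of endothelial cells (*Pecam1*, *Kdr*, *Tek*) to 1.12 to 2.46 CPM, of adipocytes (*Plin1*, *Retn*) to 0.382 to 1.23 CPM and of glia to 6.57 to 19.7 CPM in any library. In these bulk libraries, fewer cells that carry an RNA and less of it per cell cannot be told apart. The part of the muscle and fibroblast markers in the results below was not tested.

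**Figure D1:**
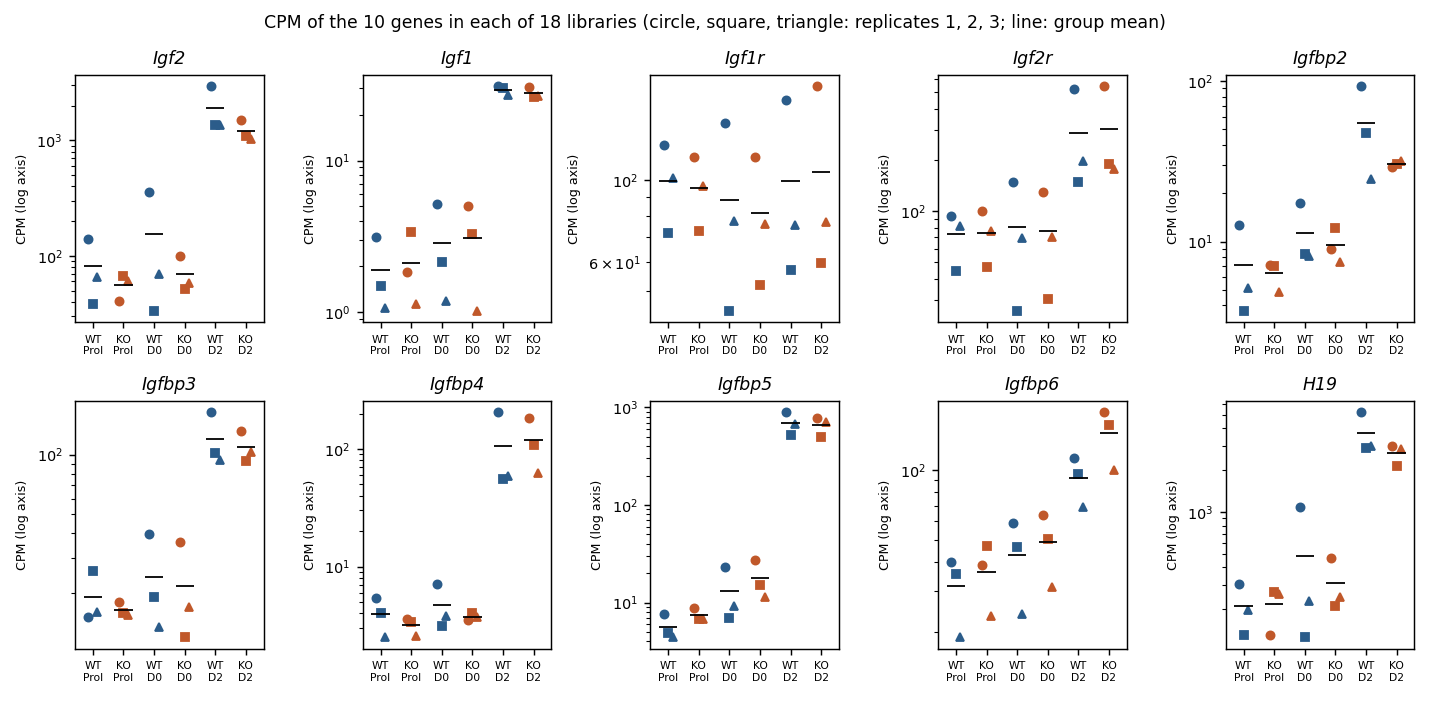
CPM of each gene on a log axis in the 18 libraries, by group, with circles, squares and triangles for replicates 1, 2 and 3, blue for WT and orange for KO, and a line at the group mean. In 9 panels the D2 libraries of each genotype lie above its Prol libraries, and in the panel of *Igf1r* the groups overlap; Prol and D2 libraries did not overlap for 43.5% of all genes in WT and 47.7% in KO.

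To learn how the axis moved as the myoblasts entered differentiation, D2 was compared with Prol within each genotype. Ligands, binding proteins, *Igf2r* and *H19* were all higher at D2. In WT, 9 of the 10 genes passed the test (limma, Benjamini-Hochberg adjusted p under 0.05 over all genes tested), all of them higher, whereas 16.6% of all genes passed in this direction. In KO, the same 9 genes passed, again all higher, against 17.1% of all genes. *Igf1r* was the gene that did not pass in either genotype. The median log2 fold change of the 10 genes was 3.53 in WT and 3.19 in KO, and that of all genes tested was -0.01 and 0.02. The rises ranged from 3.02-fold for *Igfbp6* to 124-fold for *Igfbp5* in WT, and from 3.71-fold for *Igf2r* to 87.8-fold for *Igfbp5* in KO.

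**Figure D2:**
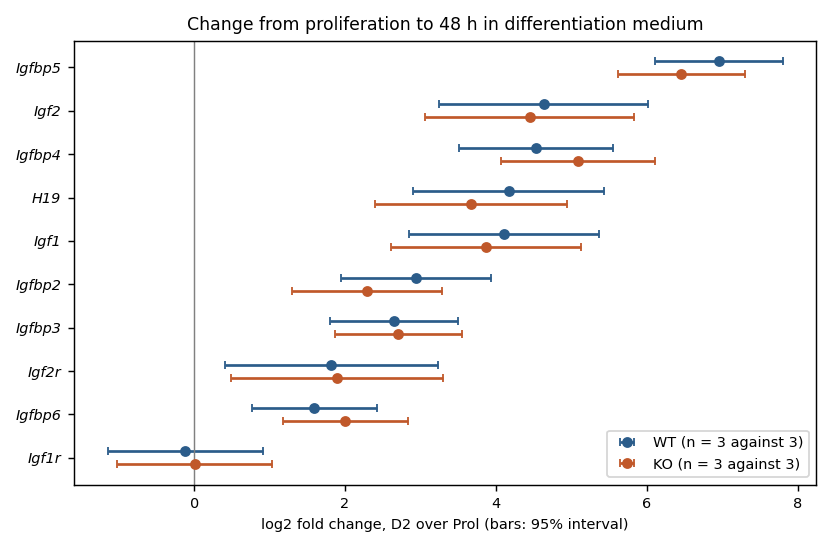
Log2 fold change of each gene from Prol to D2 in WT (blue) and KO (orange), with 95% intervals from the limma fit and 3 libraries against 3. All intervals but those of *Igf1r* lie above 0, and the WT and KO intervals of each gene overlap.

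*Igf2* encodes the ligand that dominated the pair. It was at 140, 38.4 and 66.0 CPM in the WT Prol libraries and at 2968, 1349 and 1360 CPM in the WT D2 libraries. Every D2 library was far above every Prol library, and replicate 1 was the highest in both groups. The log2 fold change was 4.63 (SE 0.65, adjusted p = 5.99e-05), which is 24.8-fold. In KO, *Igf2* went from 40.6, 67.0 and 60.4 CPM to 1504, 1095 and 1036 CPM. These groups did not overlap either, and the log2 fold change was 4.45 (SE 0.65, adjusted p = 8.91e-05).

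*Igf1*, which encodes the other ligand, was near the low end of the range in Prol, with 3.15, 1.48 and 1.06 CPM in WT and 1.83, 3.36 and 1.13 CPM in KO. At D2 it was at 31.2, 30.0 and 27.0 CPM in WT and 30.6, 26.4 and 26.5 CPM in KO. The D2 libraries lay close together (coefficient of variation 7.31% in WT and 8.69% in KO) and well above all Prol libraries. The log2 fold change was 4.11 (SE 0.59, adjusted p = 7.54e-05) in WT and 3.86 (SE 0.59, adjusted p = 0.000134) in KO. Per kilobase of exon, *Igf2* made up 96.4% to 99.4% of the summed ligand transcripts in each of the 18 libraries. The *Igf2* to *Igf1* ratio per kilobase averaged 76.6 ± 31.3 in WT Prol and 110 ± 47.8 in WT D2 (SD, n = 3 each), and the libraries of these groups overlapped.

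The receptors parted. *Igf1r*, which carries the signal of both ligands, was at 124, 72.0 and 101 CPM in WT Prol and 164, 57.3 and 75.6 CPM in WT D2. The D2 libraries lay on both sides of the Prol libraries, with a log2 fold change of -0.12 (95% interval -1.14 to 0.91). In KO it was at 115, 72.6 and 96.3 CPM in Prol and 179, 59.6 and 76.7 CPM in D2, and the log2 fold change was 0.01 (95% interval -1.02 to 1.04). A change of *Igf1r* within these intervals was not detectable in this fit, which has no replicate block and an SE of 0.48. Blocked on replicate number, the SE was 0.19 in both genotypes. *Igf1r* did not pass there either (adjusted p = 0.646 in WT and 0.979 in KO). Replicate numbers were not taken to pair the libraries in WT D2/Prol, where their correlations over all genes were 0.039 to 0.404.

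*Igf2r*, the receptor that clears IGF2, was at 93.3, 44.6 and 82.1 CPM in WT Prol and 521, 147 and 196 CPM in WT D2. In KO it was at 99.7, 47.0 and 76.1 CPM in Prol and 544, 190 and 177 CPM in D2. All D2 libraries were above all Prol libraries of the same genotype, and replicate 1 was by far the highest at D2. The log2 fold change was 1.82 (SE 0.66, adjusted p = 0.0482) in WT and 1.89 (SE 0.66, adjusted p = 0.0389) in KO. Both calls are close to the threshold. The call in WT was lost when WT Prol replicate 1, 2 or 3 or WT D2 replicate 1 or 3 was left out, with log2 fold changes of 1.28 (without WT D2 replicate 1) to 2.03 (without WT Prol replicate 1), and with voom weights (adjusted p = 0.0514) or no filter (0.0507). The call in KO was lost without KO Prol replicate 2 or 3 or KO D2 replicate 1 or 2, at 1.37 (without KO D2 replicate 1) to 2.13 (without KO D2 replicate 2). Blocked on replicate number, *Igf2r* passed in WT (adjusted p = 7.66e-05) and KO (adjusted p = 4.98e-05). In WT D2/Prol the numbers were not taken to pair the libraries, so the blocked WT value does not make that call firmer.

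The order of the replicates recurred across groups in all 10 genes. Replicate 1 was the highest library in 6 of 6 groups for *Igf1r*, *Igf2r* and *Igfbp5*, in 5 for *H19*, *Igf2*, *Igf1*, *Igfbp3*, *Igfbp4* and *Igfbp6*, and in 4 for *Igfbp2*. Replicate 2 was the lowest in 6 groups for *Igf1r*, 5 for *Igf2r* and *H19* and 4 for *Igf2* and *Igfbp5*, but in 0 to 2 groups for the other five, of which replicate 3 was the lowest in 3 to 6 groups. *Igf1r* and *Igf2r* have 16791 and 9308 exon bases, *Igf1* 9904 and *H19* 2460. Over all 1964 genes with more than 8000 exon bases and a mean of at least 10 CPM, the median deviation from the group mean was 0.11 to 0.42 (log2) in replicate 1 and -0.41 to -0.16 in replicate 2 of each group. Over 1110 genes shorter than 2000 exon bases it was -0.38 to -0.15 and 0.12 to 0.31. The part of this in the values of the 10 genes was not tested.

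Among the binding proteins, *Igfbp5* rose most. It was at 7.70, 4.88 and 4.41 CPM in WT Prol and 896, 523 and 677 CPM in WT D2, a log2 fold change of 6.96 (SE 0.40, adjusted p = 4.2e-08). In KO it was at 8.74, 6.74 and 6.84 CPM in Prol and 779, 493 and 712 CPM in D2, a log2 fold change of 6.46 (SE 0.40, adjusted p = 2.37e-07). The highest Prol library held 8.74 CPM and the lowest D2 library 493 CPM, so the groups were far apart. *Igfbp2*, its neighbour on chromosome 1, rose from 12.6, 3.70 and 5.11 to 93.4, 47.5 and 24.6 CPM in WT (log2 fold change 2.94, SE 0.47, adjusted p = 0.000183). In KO, *Igfbp2* rose from 7.15, 6.995 and 4.88 to 29.1, 30.6 and 31.8 CPM (log2 fold change 2.29, SE 0.47, adjusted p = 0.00146).

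*Igfbp4*, which encodes a binding protein that blocks IGF action until it is cut by a protease, was at 2.51 to 5.36 CPM in WT Prol and 206, 55.1 and 58.8 CPM in WT D2. Replicate 1 stood above the other D2 libraries, and the log2 fold change of 4.53 (SE 0.48, adjusted p = 4.39e-06) became 3.92 without it. In KO, *Igfbp4* rose from 2.58 to 3.56 CPM in Prol to 185, 107 and 62.2 CPM in D2 (log2 fold change 5.09, SE 0.48, adjusted p = 1.85e-06). *Igfbp3*, which encodes the main carrier of IGFs in blood, went from 15.2, 25.8 and 16.1 to 164, 102 and 94.0 CPM in WT and from 18.03, 15.9 and 15.5 to 131, 92.9 and 102 CPM in KO. Its log2 fold changes, 2.65 (SE 0.40, adjusted p = 0.000112) and 2.71 (SE 0.40, adjusted p = 9.37e-05), were close to each other. *Igfbp6*, whose product prefers IGF2 over IGF1, rose least, from 40.2, 35.5 and 18.99 to 112, 96.2 and 68.9 CPM in WT (log2 fold change 1.59, SE 0.39, adjusted p = 0.0055) and from 38.9, 47.0 and 23.5 to 177, 157 and 99.7 CPM in KO (2.00, SE 0.39, adjusted p = 0.000984).

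Because the binding proteins rose by such different factors, their make-up differed between the states. Per kilobase of exon, *Igfbp6* made up 69.8% ± 4.24 (SD, n = 3) of the summed *Igfbp2* to *Igfbp6* transcripts in WT Prol and 29.2% ± 5.47 (SD, n = 3) in WT D2. *Igfbp5* went from 2.40% ± 0.487 to 40.6% ± 7.11 (SD, n = 3 each) and was the largest part of the sum in WT D2. In KO, *Igfbp6* went from 74.6% ± 5.16 to 40.6% ± 7.54 and *Igfbp5* from 2.99% ± 0.817 to 35.0% ± 7.92 (SD, n = 3 each). The libraries of Prol and D2 did not overlap in either share, and the shares were not tested. The sum itself was 40.2 ± 12.4 CPM per kilobase in WT Prol and 292 ± 93.7 in WT D2, against 43.4 ± 11.7 and 318 ± 61.9 in KO (SD, n = 3 each).

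**Figure D3:**
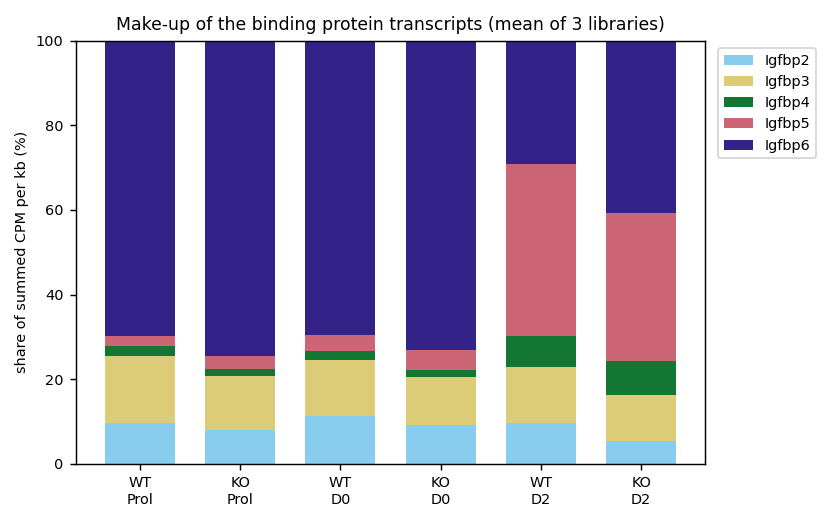
Share of each binding protein gene in the summed CPM per kilobase of exon of *Igfbp2* to *Igfbp6*, as the mean of 3 libraries per group, in percent. *Igfbp6* fills 69.5% to 74.6% of the bar in the Prol and D0 groups, and *Igfbp5* fills 40.6% in WT D2 and 35.0% in KO D2.

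*H19* was at 304, 130 and 199 CPM in WT Prol and 5238, 2911 and 3004 CPM in WT D2. In KO it was at 131, 265 and 257 CPM in Prol and 3006, 2150 and 2843 CPM in D2. The D2 libraries of both genotypes were above all Prol libraries, with log2 fold changes of 4.17 (SE 0.60, adjusted p = 7.13e-05) in WT and 3.67 (SE 0.60, adjusted p = 0.000221) in KO. Per kilobase, *H19* exceeded *Igf2* in each library, by 4.11 to 5.14 times in WT D2, 4.57 to 6.38 times in KO D2, 5.04 to 7.89 times in WT Prol and 7.51 to 9.88 times in KO Prol. The *H19* to *Igf2* ratio was thus lower in KO D2 than in KO Prol without overlap (log2 difference -0.78), and the WT groups overlapped (-0.47). Against D0, the ratio was lower at D2 without overlap in both genotypes (-0.72 in WT and -0.96 in KO). At D0 it was 9.42 to 10.9 in KO and 7.12 to 8.77 in WT, again without overlap. The two-sided exact permutation p was 0.1 for KO D2 against KO Prol and 0.2 for WT D2 against WT Prol. It was 0.1 for D2 against D0 in each genotype and 0.1 for KO against WT at D0. The smallest p that 3 libraries against 3 allow is 0.1. After Benjamini-Hochberg adjustment over the 21 ratio tests made, the smallest p was 0.263. The ratio of *Igf2* to *Igf2r* per kilobase was 1.31 to 2.45 in WT Prol and 9.27 to 14.9 in WT D2. It was 0.662 to 2.32 in KO Prol and 4.495 to 9.53 in KO D2, with no overlap and the same smallest exact p of 0.1.

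**Figure D4:**
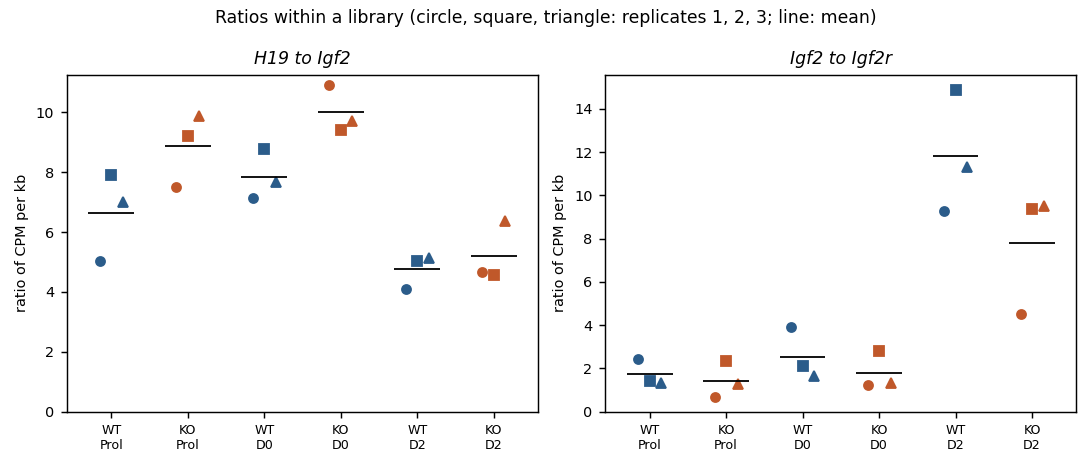
Ratio of *H19* to *Igf2* and of *Igf2* to *Igf2r* in CPM per kilobase of exon, in each of 18 libraries, with circles, squares and triangles for replicates 1, 2 and 3, blue for WT and orange for KO, and a line at the mean. The first ratio lies between 4.11 and 6.38 in the D2 libraries, and the second between 4.495 and 14.9 there and at most 3.92 in the other groups.

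Set on 1 scale, CPM per kilobase of exon, the order of the transcripts changed between the states. In WT Prol the levels were 85.8 for *H19*, 28.4 for *Igfbp6*, 14.3 for *Igf2*, 7.88 for *Igf2r*, 6.08 for *Igfbp3*, 5.90 for *Igf1r*, 3.87 for *Igfbp2*, 0.943 for *Igfbp5*, 0.896 for *Igfbp4* and 0.191 for *Igf1*. In WT D2 they were 1511 for *H19*, 331 for *Igf2*, 116 for *Igfbp5*, 83.2 for *Igfbp6*, 38.3 for *Igfbp3*, 30.9 for *Igf2r*, 29.9 for *Igfbp2*, 24.1 for *Igfbp4*, 5.90 for *Igf1r* and 2.97 for *Igf1*. *Igfbp5* thus moved from the third lowest to the third highest level, and *Igf1r* from the middle to the second lowest. Across the 6 groups, the 2 D2 groups had the highest mean of every gene but *Igf1r*, and neighbouring groups in the order overlapped except at the step from D2 to the next lower group, which overlapped only for *Igf2r*. Within a genotype, D2 and D0 libraries did not overlap for 33.2% of all genes in WT and 36.7% in KO.

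The libraries at D0 were compared with Prol to see whether the rise had begun at confluence. None of the 10 genes passed the limma test in WT or KO, where 0.00566% and 0% of all genes passed, and none passed with voom weights. At an unadjusted p under 0.05 the count was 1 of 10 in each genotype (*Igfbp5*), against 2.17% of all genes in WT and 1.12% in KO. Blocked on replicate number it was 3 of 10 in WT and 2 of 10 in KO, against 6.7% and 3.29% of all genes. Under a looser rule, an unadjusted p under 0.05 with more than a 1.5-fold change and at least 10 CPM in 1 library, *Igfbp5* was called in both genotypes, against 0.226% of all genes in WT and 0.108% in KO. KO D0 and KO Prol libraries did not overlap for 2 of 10 genes, *Igfbp2* and *Igfbp5*, against 4.35% of all genes. In WT this held for 0 of 10, against 5.92%. *Igfbp2* was at 7.44 to 12.2 CPM in KO D0 and at 4.88 to 7.15 CPM in KO Prol. *Igfbp5* was at 23.1, 6.98 and 9.25 CPM in WT D0, of which 1 library overlapped with Prol, and at 27.1, 15.3 and 11.4 CPM in KO D0, all above KO Prol. The log2 fold change was 1.06 (SE 0.40, adjusted p = 1.00) in WT and 1.18 (SE 0.40, adjusted p = 1.00) in KO. The looser rule was no longer met in WT without WT D0 replicate 1 (0.55), WT Prol replicate 2 (0.97) or WT Prol replicate 3 (0.90), nor in KO without KO D0 replicate 1 (0.84), where the values are log2 fold changes. WT D0 replicate 1 also held 1093 CPM of *H19* and 357 CPM of *Igf2*, against 126 and 230 CPM and 33.3 and 69.9 CPM in the other WT D0 libraries.

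From D0 to D2, the 9 genes other than *Igf1r* passed in both genotypes, all higher, against 14.7% of all genes in WT and 15.3% in KO. The log2 fold changes were 1.17 (*Igfbp6*) to 5.90 (*Igfbp5*) in WT and 1.59 (*Igfbp6*) to 5.27 (*Igfbp5*) in KO. The D2/D0 and D2/Prol comparisons share the D2 libraries. In D2/D0 the calls of *Igf2r*, of *Igfbp6* in WT and of *Igfbp2* in KO depended on single libraries.

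KO was then compared with WT in each state, which asks whether LAP2α is needed for the levels of the axis. None of the 10 genes passed in Prol, D0 or D2, where 0.00566%, 0% and 0% of all genes passed, and the libraries of KO and WT overlapped for each of the 10 in every state, while they did not for 4.41%, 3.02% and 6.17% of all genes. The change from Prol to D2 did not pass as different between the genotypes for any of them either, against 0% of all genes. Log2 fold changes of KO over WT at D2 were between -0.65 (*Igfbp2*) and 0.63 (*Igfbp6*). With voom weights none passed either. In limma without the block the count at an unadjusted p under 0.05 was 0 of 10 in Prol, D0 and D2 and for the interaction, against 1.11%, 1.47%, 1.96% and 0.945% of all genes. Blocked on replicate number, it was 0 in Prol, 1 at D0 (*Igfbp5*), 1 at D2 (*Igfbp6*) and 1 for the interaction (*Igfbp6*), against 2.07%, 2.86%, 5.23% and 2.26% of all genes, and none of these passed after adjustment.

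*Igfbp6* was the highest of these differences. It was at 177, 157 and 99.7 CPM in KO D2 and 112, 96.2 and 68.9 CPM in WT D2, a log2 fold change of 0.63 (95% interval -0.20 to 1.46). KO was above WT in 3 of 3 pairs of the same replicate number, by 1.58, 1.63 and 1.45 times, while the third KO library lay within the WT range. That interval is from the limma fit without the replicate block, where the SE was 0.39. Blocked on replicate number, the SE was 0.14 and the unadjusted p was 0.000308. After adjustment over all genes, *Igfbp6* did not pass at D2 in the blocked fit either (adjusted p = 0.354).

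*Igf2* and *H19* were lower in KO D2 than in WT D2 in 3 of 3 pairs, with overlapping groups. *Igf1* was also lower in 3 of 3 pairs at D2, and *Igf1r* was higher in 3 of 3. The share of all genes with 3 of 3 pairs in 1 direction was not taken. The pair counts here and for *Igfbp6* are therefore not read as differences. The KO to WT ratio of *Igf2* was 0.507, 0.812 and 0.762 and that of *H19* 0.574, 0.739 and 0.947 in replicates 1, 2 and 3. The log2 fold change of *Igf2* was -0.56 (95% interval -1.94 to 0.83) and was -0.18 without WT D2 replicate 1. That of *H19* was -0.44 (95% interval -1.71 to 0.83) and was -0.16 without the same library. *Igfbp2* was at 29.1, 30.6 and 31.8 CPM in KO D2, inside the range of 24.6 to 93.4 CPM in WT D2, with a log2 fold change of -0.65 (95% interval -1.64 to 0.35) that became -1.13 when WT D2 replicate 3 was left out and -0.16 when replicate 1 of that group was. Beside these, the summed muscle markers of the D2 libraries did not overlap between WT and KO, as given above, and their part was not tested. Taken singly, 0 of the 10 differentiating muscle markers and 0 of the 7 myoblast markers passed in KO/WT D2, against 0% of all genes. *Igfbp5* was higher in KO in 3 of 3 pairs in Prol and in D0 and in 1 of 3 at D2, with log2 fold changes of 0.43 and 0.55 in Prol and D0. *Igfbp6* was higher in KO in 3 of 3 pairs at D0 as well.

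**Figure D5:**
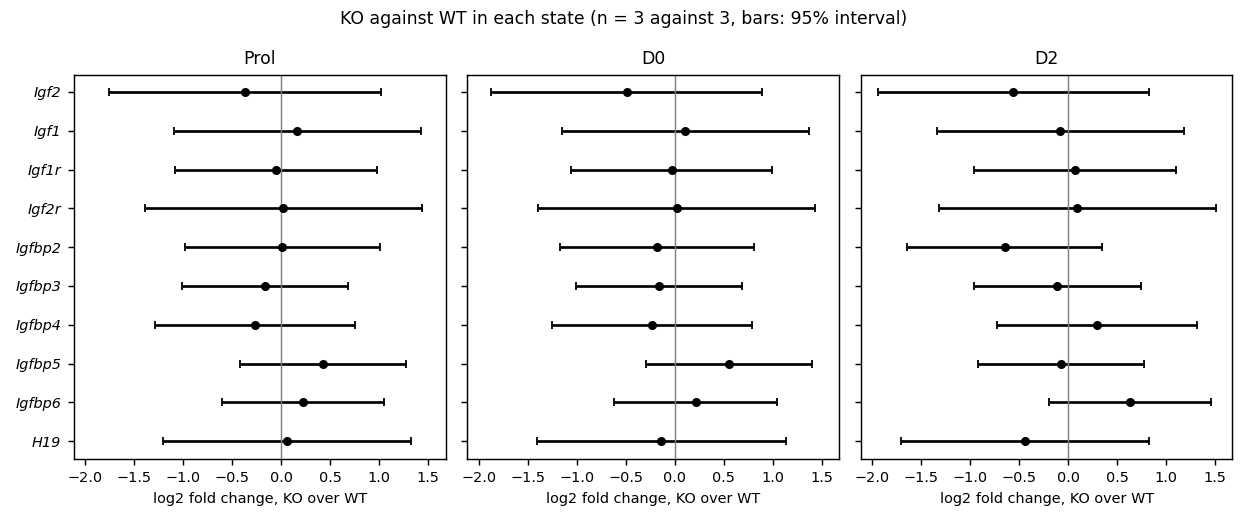
Log2 fold change of KO over WT for each gene in Prol, D0 and D2, with 95% intervals from the limma fit and 3 libraries against 3. Every interval from this fit, which has no replicate block, includes 0.

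Other genes of the pathway were taken from lists, of which 85 of 96 genes were tested. In WT D2/Prol, 29 of them rose and 6 fell, where 16.6% of all genes rose and 14.1% fell. In KO D2/Prol 30 rose and 6 fell, where 17.1% and 15.2% of all genes did, and none passed in KO/WT at any state. The counts of the single lists are to be read against these shares. Of the 7 tested genes on the list of further binding proteins and their proteases, 2 passed in WT, both higher: *Pappa2*, a protease that cuts IGF binding proteins (log2 fold change 3.66, adjusted p = 0.00169), and *Stc1* (2.36, adjusted p = 0.0146), which encodes stanniocalcin, itself neither of these. Both stayed below 10 CPM in every WT Prol and WT D2 library. Of the 8 receptor and adaptor genes, *Irs1*, the docking protein of IGF1R, rose from 34.8 ± 1.96 to 85.2 ± 9.24 CPM in WT (SD, n = 3 each, log2 fold change 1.29), and the adaptor *Shc1* rose from 132 ± 11.1 to 221 ± 25.3 CPM (SD, n = 3 each, 0.75). Both rose in KO as well, by 1.37 and 0.80.

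Of the 25 tested genes of the PI3K, AKT and TOR arm, 5 rose and 3 fell in WT, and 5 rose and 1 fell in KO, and the numbers that rose are near the 16.6% and 17.1% of all genes. The highest log2 fold changes in WT were those of *Pik3r3*, a regulatory subunit of PI3K (1.76), and *Foxo4*, a transcription factor held back by AKT (1.11). The lowest were those of *Pik3cb*, a catalytic subunit (-1.49), and *Eif4ebp1*, an inhibitor of translation that TOR phosphorylates (-0.81), neither of which passed in KO (adjusted p = 0.111 and 0.0627). In the RAS and MAP kinase arm of 12 genes, 1 rose and 2 fell in WT, where 16.6% and 14.1% of all genes did, and 1 rose and 4 fell in KO, against 17.1% and 15.2%. Counts this small say nothing about the arm. *Spry1*, a feedback inhibitor of the arm, rose from 5.50 ± 0.753 to 52.3 ± 5.15 CPM in WT (SD, n = 3 each, log2 fold change 3.25), while *Nras* (-0.74) fell. *Igf2bp1*, one of 3 genes for proteins that bind *Igf2* mRNA, fell in WT (-0.77, adjusted p = 0.00496) and KO (-0.87, adjusted p = 0.00195), and *Igf2bp2* and *Igf2bp3* did not pass.

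Of 16 tested genes of an imprinted gene network around *H19* and *Igf2*, 10 rose and none fell in WT, and 11 rose and none fell in KO, against 16.6% and 17.1% of all genes that rose. The list's median log2 fold change was 2.15 in WT and 2.44 in KO, against -0.01 and 0.02 over all genes. *Mest*, an imprinted gene, went from 7.80 ± 1.86 to 295 ± 113 CPM and *Dcn*, which encodes decorin and is also on the fibroblast marker list, from 0.213 ± 0.177 to 47.8 ± 16.9 CPM in WT (SD, n = 3 each). Of 13 listed neighbours of *H19* and *Igf2* on chromosome 7, 8 had values and were tested, among them *Igf2os*, which overlaps *Igf2* itself. Of these 8, 7 rose in WT and 7 in KO, against the same 16.6% and 17.1%. The listed neighbours without values are not in this count. Those that rose were led by *Tnni2* (log2 fold change 9.82 in WT) and *Tnnt3* (8.56). Both encode subunits of fast troponin, and *Tnnt3* is on the muscle marker list. *Mrpl23*, the neighbour on the far side of *H19*, did not pass (0.39, adjusted p = 0.45). Of 4 neighbours of *Igfbp2* and *Igfbp5*, *Tns1* (1.26) and *Xrcc5* (0.95) rose, and neither of the 2 tested neighbours of *Igfbp3* passed.

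The pattern of *H19* over the 18 libraries was closest to that of *Igf2* among 9488 genes with a mean of at least 10 CPM, measured as the root mean square distance of log2 values after each gene was centred on its own mean (0.43). Outside the 10 genes, the nearest to *H19* were *Adamts4* (0.51), *Synpo2* (0.52) and *Chrna1* (0.53). *Jph2* (0.46), *Mef2c* (0.50) and *Ccdc141* (0.52) were nearest to *Igf2*, and *Des* (0.72), *Cacna1g* (0.72) and *Actn3* (0.74) to *Igfbp5*. All 9 were higher at D2 in WT, by log2 fold changes of 3.09 (*Synpo2*) to 7.51 (*Actn3*). They were chosen for their likeness, over the same libraries, to genes that rise at D2. Their rise follows from that choice and is not a separate result.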

How the data were processed

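RNA-seq was done on polyadenylated RNA with strand-specific single-end libraries. The authors used cutadapt for trimming and NextGenMap for mapping to GRCm38 transcripts, estimated strand-aware expected counts with RSEM, removed low genes and scaled with the TMM factors of edgeR. The paper names a batch effect of the sequencing lane and blocked on the lane in its limma model. The labels do not give the lane, so no fit here includes it. Whether the lane follows the replicate numbers is not known. The deposited values are CPM, (expected count + 0.5) per 1000000 of the library total times its TMM factor. The totals and expected counts were recovered from them.

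log2 of the deposited CPM of 17672 genes (over 5 expected counts in every library of 1 group or more) was fitted with limma 3.58.1 (R 4.3.3, trended variance, 6 groups, 18 libraries), with Benjamini-Hochberg adjustment over all of them. On simulated data for WT D2/Prol with these 17672 genes, the test called 47 of 100 genes with a 2-fold change and 85 of 100 with a 4-fold change. Only 200 genes were changed in the simulation, whereas 5424 passed in WT D2/Prol itself. The adjustment was therefore stricter in the simulation, and these counts do not give the power of the real comparison. Ratios were tested by exact permutation in SciPy 1.17.1. Figures were drawn with matplotlib 3.10.9.

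The alternatives were library totals, median-of-ratios scaling, voom weights, log2(CPM + 1), no filter, a replicate block, only the groups compared, a looser call rule (unadjusted p under 0.05, over 1.5-fold, at least 10 CPM in 1 library) and each library left out. A voom fit with a random replicate block and a fit without all first replicates were added after seeing the data. After subtraction of group means, libraries with the same number correlated by more than 0.1 in 25 of 27 pairs (0.0100 to 0.645), and in all 3 pairs of every comparison but WT D2/Prol and WT D2/D0, so the numbers were taken to pair the libraries in the other 7.

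The 10 genes and the lists were chosen with earlier results of these data known. From each pathway list, up to 2 genes with the highest and 2 with the lowest log2 fold change in WT D2/Prol were named among those that passed with at least 10 CPM in 1 library, as well as any that passed in KO/WT; the 3 genes nearest in pattern to *H19*, *Igf2* and *Igfbp5* were named too. *Pappa2*, *Stc1*, *Mrpl23*, *Igf2bp2* and *Igf2bp3* were named after their values were seen, and the *H19* to *Igf2* and *Igf2* to *Igf2r* ratios were chosen after the levels were seen. One gene that this rule names is not reported here.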

Additional observations from a re-analysis of the deposited data

How the results depend on the processing

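Of 100 values (10 genes in 10 comparisons), 36 passed the test and none of these changed sign in 15 to 21 alternatives; 6 lost the call in at least 1 of them. Of the 64 values that did not pass, 44 changed sign in at least 1 alternative and none passed. The count of genes that passed changed by more than 1.5 times only under the looser rule without adjustment (unadjusted p under 0.05, over 1.5-fold, at least 10 CPM in 1 library), which called 1 gene in WT D0/Prol and 1 in KO D0/Prol. Library totals in place of TMM moved the median of all genes by 0.16 (log2) in WT D2/Prol and 0.13 in KO D2/Prol. *Igf1r* in WT D2/Prol was 0.046 with library totals and -0.56 to 0.20 with 1 library left out. In KO D2/Prol it was -0.31 without all first replicates and -0.46 to 0.33 with 1 library left out. In D2/D0 with 1 library left out it was -0.26 to 0.61 in WT and -0.19 to 0.61 in KO.

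The calls in D2/D0 were lost for *Igf2r* in WT without WT D0 replicate 2 (1.28) or 3 (2.00) or WT D2 replicate 1 (1.40) or 3 (2.11) and in the fit of only the groups compared, and in KO without KO D0 replicate 2 (1.46) or 3 (2.07) or KO D2 replicate 1 (1.49). *Igfbp6* in WT D2/D0 lost it without WT D0 replicate 2 (1.27) or 3 (0.80), WT D2 replicate 1 (1.02) or 2 (1.13) or all first replicates (1.29) and in the fit of only the groups compared, and *Igfbp2* in KO D2/D0 without KO D0 replicate 3 (1.54). Without WT D0 replicate 1, the log2 fold change of D2/D0 was 4.40 for *H19*, 5.19 for *Igf2* and 2.54 for *Igf2r*; without WT D0 replicate 2 it was 2.83 for *H19* and 3.48 for *Igf2*. *Igfbp4* in WT D2/D0 was 3.70 without WT D2 replicate 1, and *Igf1* in KO D2/D0 was 2.78 without KO D0 replicate 3. *Igf1* in D2/Prol was 3.46 in WT and 3.28 in KO with log2(CPM + 1). The cause of these shifts was not tested.

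With the replicate block, 9 genes passed in each D2/Prol and D2/D0 comparison and 0 in the others, so that it changed no call of these genes at the adjusted threshold. Over all genes it raised the number that passed from 5424 to 8431 in WT D2/Prol, 5706 to 8580 in KO D2/Prol, 4590 to 7642 in WT D2/D0 and 4997 to 8126 in KO D2/D0. The replicate numbers were not taken to pair the libraries in WT D2/Prol and WT D2/D0, so the blocked values there carry that limit.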

Other observations

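Antisense genes that overlap these genes were low, and the counting kept the strands apart. *Igf2os*, antisense to *Igf2*, was at 0.138 to 0.817 CPM in WT Prol and 4.60 to 10.3 CPM in WT D2, and at 2.74 to 3.55 CPM in KO D2. *Airn*, antisense to *Igf2r* and known to silence it on the paternal chromosome, was at 0.624 to 0.846 CPM in WT Prol, 5.10 to 6.87 CPM in WT D2 and 4.45 to 7.65 CPM in KO D2. *Igf1os* was between 0.0149 and 0.692 CPM in all libraries. The insulin receptor gene *Insr* was at 28.8 to 43.7 CPM in WT Prol and 27.9 to 60.7 CPM in WT D2, with replicate 1 highest in both groups as for *Igf1r*. *Igf2os* and *Insr* are also on the pathway lists above and were counted in them. The levels given here were chosen after the values were seen, and no test is given for them.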
